A study of Homo sapiens with 8 samples.

Results

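The Integrator and cleavage-polyadenylation machinery was followed here as a set of 35 genes taken by name from the 60725 genes of the counts table, namely 16 subunits of Integrator with its PP2A partners and 19 factors of pre-mRNA cleavage and polyadenylation. All 35 were found by their Ensembl identifier and all 35 passed the filter on low counts, with 436 reads or more in every library. Integrator cuts nascent RNA of RNA polymerase II close to promoters and at snRNA genes, through the endonuclease INTS11, and it carries a PP2A phosphatase that acts on the polymerase. The cleavage-polyadenylation machinery recognises the poly(A) signal at the end of a gene, cuts the pre-mRNA with the endonuclease CPSF3, a relative of INTS11, and adds the poly(A) tail. NELF, the complex depleted in this study, holds the polymerase in promoter-proximal pausing, the stage at which Integrator also acts.

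Polyadenylated RNA was sequenced from HAP1, a near-haploid human line derived from a leukaemia line, in 8 libraries of single-end reads of 65 bases. All cells belonged to 1 clone, SC9, with dCas9-KRAB under an EF1a promoter. This is a catalytically dead Cas9 fused to a repressor domain, which silences the promoter to which a guide RNA leads it. The 3 control libraries carried a guide RNA against ADAM22 (pLB187), and the knockdown libraries carried a guide RNA against NELFE (3 libraries) or NELFB (2 libraries). All cells had been transduced with a lentivirus, put under puromycin after 48 h, and harvested after 144 h. The labels only number the replicates, so p-values here measure the spread between these libraries. With 1 guide RNA per target and 1 clone, effects of the guide or of the clone cannot be told apart from those of the target.

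The guide RNAs are shown because they define the knockdowns and because a match elsewhere could bring the repressor to another gene. Each is written with the 12 bases next to the PAM in capitals, and each has 1 perfect match beside a PAM in GRCh38. The NELFE guide lies on the minus strand at chr6:31958918-31958936, 35 bases from the NELFE start site, and the NELFB guide lies on the plus strand at chr9:137255369-137255387, 42 bases from the NELFB start site.
NELFE guide: gggcgcgGCCGGAGACCGT
NELFB guide: gccgagcTGGAGGGCGCCG

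The 35 genes had little resemblance to these sequences at their promoters. Within 500 bases of the canonical start sites, the longest stretch that matched the PAM-proximal end of the NELFE guide beside an NGG was 6 bases (INTS5), and that of the NELFB guide was 7 bases (INTS1). A stretch of 9 bases or more was present at 0 of the 35 genes for either guide, against 0.0961% and 0.583% of 16645 genes scanned. Such stretches were thus rare among all genes, and their absence does not set the 35 apart.

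Promoters are shown for INTS3, PABPN1 and NUDT21, since their calls described below were kept when any library was left out and the stretch holds few annotated exon bases (0 for INTS3 and PABPN1, 19 for NUDT21). Each is the stretch of 100 bases before the RefSeq start site in GRCh38.p14, 5′ to 3′ on the strand of the gene, with matches to any of 6 promoter motifs on either strand in capitals. They lie at chr1:153727950-153728049 on the plus strand (INTS3), chr14:23321357-23321456 on the plus strand (PABPN1) and chr16:56451333-56451432 on the minus strand (NUDT21).
INTS3 promoter: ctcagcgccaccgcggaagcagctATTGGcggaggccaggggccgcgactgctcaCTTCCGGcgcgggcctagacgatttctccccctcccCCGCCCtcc
PABPN1 promoter: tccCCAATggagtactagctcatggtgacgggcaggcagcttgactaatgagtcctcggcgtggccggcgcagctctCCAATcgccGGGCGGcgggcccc
NUDT21 promoter: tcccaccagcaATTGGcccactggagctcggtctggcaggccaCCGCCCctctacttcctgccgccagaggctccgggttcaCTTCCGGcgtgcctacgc

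All 3 windows hold a CCAAT box and a GC box, although INTS3 and PABPN1 rose and NUDT21 fell. The calls of CPSF2 and SYMPK were also kept, but their stretches hold 49 and 47 annotated exon bases and are not shown. The CPSF2 stretch holds none of the 6 motifs and the SYMPK stretch only a GC box, so the pair of boxes is not common to these calls. RefSeq promoter windows of 300 bases around the start were found for 30 of the 35 genes. Both strands were searched for the letters of each motif. For the 30 genes the window nearest the canonical start was taken, whereas for the promoters of tested genes it was the first by coordinate. The shares below thus compare windows chosen in unlike ways where a gene has several. The CCAAT box (CCAAT) was present in 15 of the 30 (50%, against 35.9% of 11599 promoters of tested genes). The GC box (GGGCGG) was present in 23 (76.7%, against 68.3%). The ETS motif (CCGGAAG) was found in 9 (30%, against 18.1%). The cyclic AMP response element (TGACGTCA) was found in 5 (16.7%, against 3.16%). The YY1 motif (AAGATGGC) was found in 4 (13.3%, against 5.07%), and the TATA box (TATAAA) in 0 (against 5.98%). Such matches describe the letters and do not show binding of a factor.

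The targets followed their labels. NELFE was measured at 50.5, 49.4 and 48.1 CPM (reads scaled to library size by the TMM method of edgeR) in the control libraries, at 2.41, 2.37 and 2.98 CPM in the NELFE knockdown and at 61.2 and 56.9 CPM in the NELFB knockdown. NELFB was measured at 74.4, 72.7 and 79.1 CPM in control cells, at 63.4, 63.9 and 64.0 CPM in the NELFE knockdown and at 3.07 and 2.78 CPM in the NELFB knockdown. Each guide thus lowered its own target, with a log2 fold change (log2 change below) of -4.26 for NELFE and -4.69 for NELFB. The p-values, from edgeR's quasi-likelihood fit and adjusted by Benjamini-Hochberg over all genes, were 2.15e-08 and 4.02e-09. NELFB was also lower in the NELFE knockdown, by a log2 change of -0.24 (adjusted p = 0.0481, edgeR).

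Some libraries stood apart from their group. Control replicate 1 was the lowest of the 3 control libraries for 23 of the 35 genes, and for 40.6% of all 16367 genes tested. NELFE knockdown replicate 3 was the highest of its group for 22 of the 35 genes, against 41.5% of all genes. A chi-square of the counts divided by its degrees of freedom was 17.1 and 29.4 for control replicate 1 against replicates 2 and 3, and 5.76 between the latter. It was 21.1 and 21.4 for NELFE knockdown replicate 3 against the other two, and 4.25 between those. The labels name no batch that divides the libraries in this way, and the counts of called members are also given without these libraries.

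Markers of other cell types were near 0 with few exceptions. Of 8 blood lineage markers, TAL1 was the most abundant (53.5 to 64.6 CPM), MPO was at 0 in all 8 libraries, and the list without TAL1 summed to 3.07 CPM or less in every library. The summed level of the list was 58.6, 61.8 and 57.9 CPM in control cells, 65.4, 64.0 and 55.1 CPM in the NELFE knockdown and 61.2 and 60.9 CPM in the NELFB knockdown. Of the 2 genes tested, CD34 rose (0.258 to 2.78 CPM in the knockdowns, against 0.0438 to 0.133 CPM, adjusted p = 0.0142, edgeR). Of 7 fibroblast markers, COL1A1 was the most abundant (15.3 to 29.6 CPM), and DCN and LUM were at 0 in all 8 libraries. This list summed to 30.2, 20.7 and 19.7 CPM in control cells, 29.7, 18.1 and 25.3 CPM in the NELFE knockdown and 55.6 and 32.6 CPM in the NELFB knockdown. Of the 2 genes tested, COL3A1 rose (2.62 to 26.8 CPM in the knockdowns, against 0.200 to 0.310 CPM, adjusted p = 0.0118, edgeR). The part of such genes in the values below was not tested. In bulk RNA of this kind, fewer cells of a type and less RNA per cell cannot be told apart.

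In control cells all 35 genes were expressed, with a median of 52.7 TPM (a level corrected for exon length and library size), against 16.7 TPM for all genes tested. The 2 highest were NUDT21, the RNA-binding subunit of cleavage factor I, at 298 ± 16.05 TPM (SD, n = 3), and PABPN1, the nuclear poly(A)-binding protein that sets tail length, at 179 ± 9.77 TPM. PABPN1 shares 39.3% of its exon bases with a readthrough gene, and bases shared in the annotation used for counting collect no counts. Over its unshared bases alone it was at 295 ± 16.1 TPM, and its control libraries overlapped those of NUDT21, which shares none. At the low end were FIP1L1, which tethers poly(A) polymerase to the cleavage complex, at 9.22 ± 0.457 TPM, and INTS4, the scaffold that holds the Integrator endonuclease, at 8.74 ± 0.210 TPM.

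Levels within a complex were thus far from equal. INTS4 was at 8.74 TPM, while its partners in the cleavage module, INTS9 and the endonuclease INTS11, were at 28.4 ± 0.861 and 61.1 ± 3.16 TPM. The PP2A subunits PPP2R1A and PPP2CA, which also serve in other phosphatase complexes, were at 149 ± 4.27 and 147 ± 23.7 TPM, and INTS6, which links them to Integrator, was at 12.5 ± 1.29 TPM. Of the 34 neighbouring pairs in the order of levels, 24 had overlapping control libraries, so the middle of the order is not resolved. NUDT21, PABPN1, CPSF1, CSTF3, RBBP6, PAPOLA, INTS3, INTS9, INTS12 and INTS6 were separated from the next gene. Over unshared exon bases NUDT21, CPSF1, PAPOLA, INTS12 and INTS6 were not, and PPP2CA was at 204 ± 32.8 TPM. The levels also depend on the transcript length used. With the length of the canonical transcript INTS4 was at 20.9 TPM, FIP1L1 at 20.6 TPM, INTS9 at 31.8 TPM, INTS6 at 25.2 TPM and INTS11 at 138 TPM. INTS4, FIP1L1 and INTS6 thus stood higher, with FIP1L1 now at rank 35 and INTS4 at rank 34. INTS11 moved further from INTS9, from rank 14 to rank 6.

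**Figure D1:**
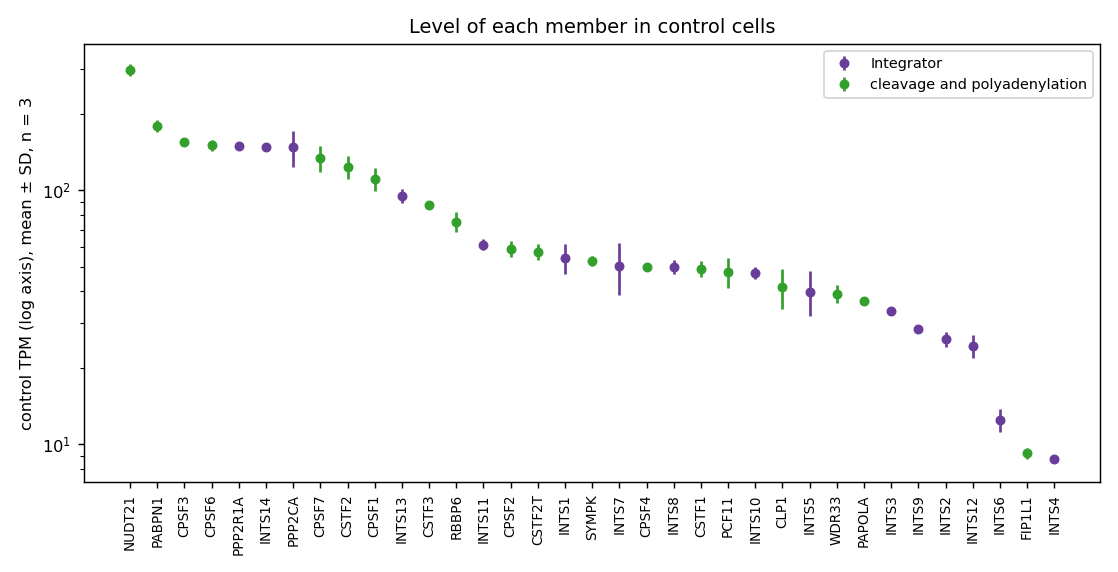
Level of each of the 35 genes in control cells, as TPM on a log axis (mean ± SD of 3 libraries), ordered from high to low and coloured by complex. NUDT21 (298 TPM) opens and INTS4 (8.74 TPM) closes the order. Lengths are all merged exon bases, shared ones included, and over unshared bases PABPN1 (295 TPM) was level with NUDT21.

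Both knockdowns were first set together against control (5 against 3 libraries), the comparison with the most libraries. The cleavage-polyadenylation factors CPSF2, SYMPK, NUDT21 and PAPOLA and the Integrator genes INTS2 and PPP2R1A fell, while PCF11, PABPN1 and INTS3 rose. All of these changes were small, between 12.01% and 25.4% of the control level. A total of 9 of the 35 genes were called at an adjusted p under 0.05 in edgeR, 3 upward and 6 downward. This share of 25.7% lies close to the 26% of all 16367 genes that were called (13.3% upward and 12.7% downward), so the set as a whole did not stand out by its number of calls. Among the 7689 genes within the range of control CPM of the 35, 11.1% rose and 18% fell.

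Larger changes were missing from the set. None of its 9 called genes changed by more than 1.5-fold, whereas 38.6% of all called genes did. That share covers called genes at all levels, and genes within the range of control CPM of the 35 were not tested apart. The median log2 change of the 35 genes was -0.05, against -0.0021 for all genes tested, and 26 of the 35 had a negative value (74.3%, against 50.3% of all genes). Both backgrounds cover genes at all levels. Within the range of control CPM of the 35 more genes fell (18%) than rose (11.1%), and negative values were not counted there. The median of the 35 genes depended on single libraries. It was -0.11 without control replicate 1 (27 negative values) and -0.09 without NELFE knockdown replicate 3 (28 negative values), and 20 values were negative without control replicate 3. The knockdown libraries lay all above or all below the control libraries for 14 of the 35 genes, 5 above and 9 below, against 28.7% of all genes tested. The number was 18 without control replicate 1 (42.1% of all genes), 15 without NELFE knockdown replicate 3 (38.9% of all genes) and 11 with DESeq2 size factors in place of TMM (28.5% of all genes). Besides the 9 called genes these were INTS11, INTS14, CPSF3, CSTF2T and CSTF3.

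**Figure D2:**
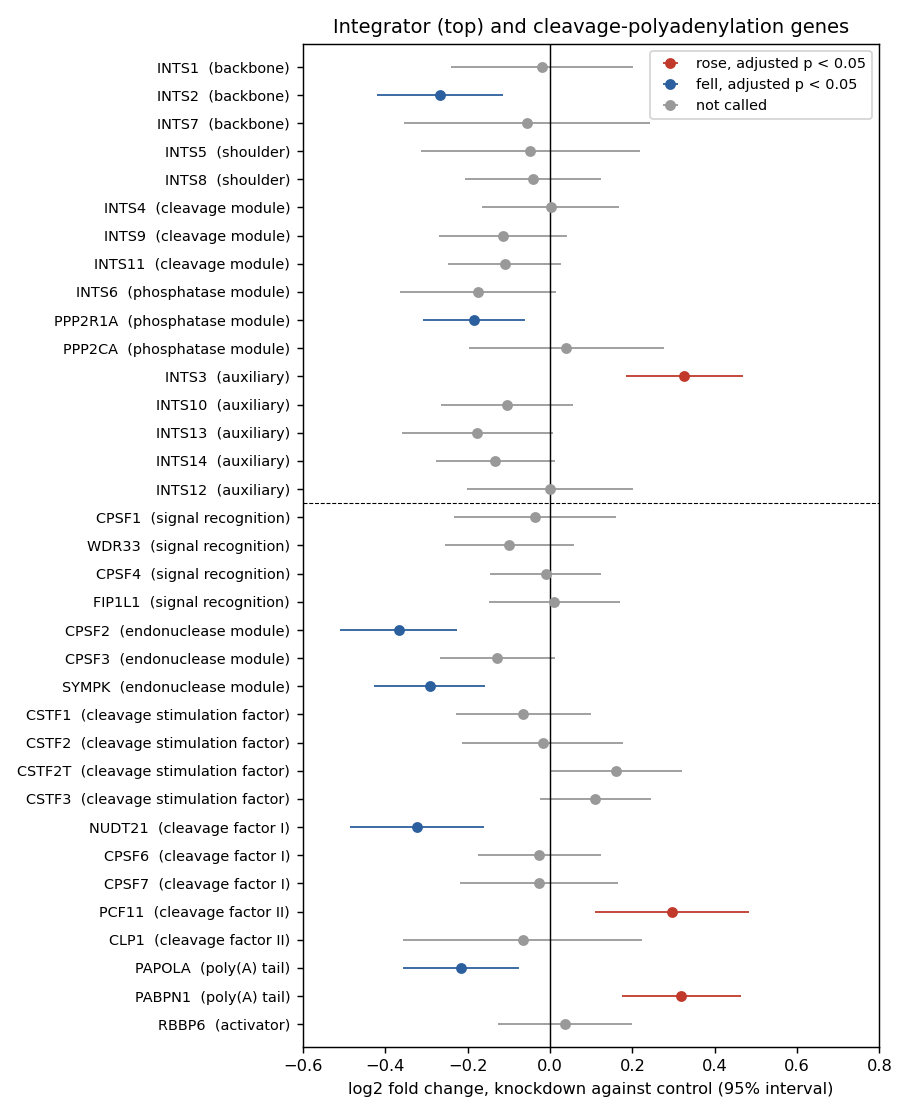
Log2 change of the 35 genes in the 5 NELF knockdown libraries against the 3 control libraries, with 95% intervals, ordered by complex and role. The 6 genes that fell lie between -0.37 and -0.18 and the 3 that rose between 0.30 and 0.33.

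Within the endonuclease module of the cleavage-polyadenylation machinery, 2 of 3 genes fell, against 12.7% of all genes. CPSF2, the catalytically inactive partner of the endonuclease (ENSG00000165934.12, chr14:92121969-92172145), was measured at 178, 194 and 212 CPM in control cells, at 149, 150 and 157 CPM in the NELFE knockdown and at 148 and 151 CPM in the NELFB knockdown. Every knockdown library was below every control library. Its log2 change was -0.37 ± 0.06 (standard error, adjusted p = 0.00246 in edgeR).

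SYMPK encodes symplekin, the scaffold of this module (ENSG00000125755.18, chr19:45815410-45863194). It was measured at 141, 132 and 134 CPM in control cells, at 113, 109 and 108 CPM in the NELFE knockdown and at 105 and 118 CPM in the NELFB knockdown, again without overlap. Its log2 change was -0.29 ± 0.06 (adjusted p = 0.00613, edgeR). CPSF3, the endonuclease itself, had a log2 change of -0.13 and was not called (adjusted p = 0.163, edgeR), although its 3 control libraries (139 to 139.8 CPM) all lay above the knockdown libraries (119 to 138 CPM). Without NELFE knockdown replicate 3, CPSF3 was called as well.

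Poly(A) signal recognition showed no called gene. CPSF1, WDR33, CPSF4 and FIP1L1, which together bind the signal, had log2 changes between -0.10 (WDR33) and 0.01 (FIP1L1). WDR33 was measured at 125, 144 and 151 CPM in control cells, at 136, 129 and 136 CPM in the NELFE knockdown and at 126 and 126 CPM in the NELFB knockdown. FIP1L1 was measured at 30.5, 28.0 and 29.4 CPM in control cells, at 28.6, 28.2 and 30.8 CPM in the NELFE knockdown and at 28.7 and 31.4 CPM in the NELFB knockdown. The groups overlapped for both genes. WDR33 shares 25.7% of its exon bases with another gene (SFT2D3) and FIP1L1 shares 22.4% (LNX1 and ENSG00000282278). Where the annotation used for counting shares these stretches too, their reads could not be assigned.

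The cleavage stimulation factor, which binds downstream of the cleavage site, also had no called gene. CSTF1 and CSTF2 had log2 changes of -0.06 and -0.02. CSTF2T, an intronless copy of CSTF2, and CSTF3 had values of 0.16 and 0.11 (adjusted p = 0.130 and 0.213, edgeR). CSTF2T was at 52.0 to 60.3 CPM in control cells and at 60.4 to 67.7 CPM in the knockdowns, ranges that barely cleared each other.

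Cleavage factor I binds upstream of the signal and influences the choice of cleavage site. NUDT21, its RNA-binding subunit (ENSG00000167005.13, chr16:56429133-56452199), fell, whereas CPSF6 and CPSF7, its larger subunits, both had log2 changes of -0.03 and were not called. NUDT21 was measured at 400, 441 and 456 CPM in control cells, at 355, 347 and 382 CPM in the NELFE knockdown and at 322 and 322 CPM in the NELFB knockdown. All knockdown libraries lay below the control libraries, the NELFB libraries lowest. The log2 change was -0.32 ± 0.07 (adjusted p = 0.00948, edgeR).

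PCF11, the subunit of cleavage factor II that binds the polymerase tail and promotes termination (ENSG00000165494.10, chr11:83156988-83187451), rose. It was measured at 96.2, 126 and 125 CPM in control cells, at 140, 139 and 139 CPM in the NELFE knockdown and at 145 and 146 CPM in the NELFB knockdown. The knockdown libraries were close to each other and above all control libraries, of which replicate 1 was far below the other two. The log2 change of 0.30 ± 0.09 (adjusted p = 0.0261, edgeR) was lost as a call without control replicate 1 (log2 change 0.18) and without either NELFB library. CLP1, the other subunit, had a log2 change of -0.07 and was not called. PCF11 shares 18.9% of its exon bases with neighbouring transcripts.

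The 2 genes that make and coat the poly(A) tail changed in opposite directions. PABPN1 (ENSG00000100836.10, chr14:23321457-23326163) was measured at 169, 158 and 157 CPM in control cells, at 209, 216 and 191 CPM in the NELFE knockdown and at 195 and 194 CPM in the NELFB knockdown. Every knockdown library was above every control library, and the log2 change was 0.32 ± 0.07 (adjusted p = 0.00568, edgeR). PABPN1 shares 39.3% of its exon bases with the readthrough gene BCL2L2-PABPN1, which was counted at 1.97 CPM or less in every library and rose too (log2 change 0.97, adjusted p = 0.0211, edgeR). Reads in stretches shared in the annotation used for counting were not counted, so the PABPN1 counts come from the part unshared there. PAPOLA, the canonical poly(A) polymerase (ENSG00000090060.17, chr14:96501433-96567116), was measured at 123, 122 and 121 CPM in control cells, at 102, 98.9 and 112 CPM in the NELFE knockdown and at 111 and 102 CPM in the NELFB knockdown. Its libraries did not overlap either, but its call was weaker, with a log2 change of -0.22 ± 0.06 (adjusted p = 0.0298, edgeR), and was lost in 5 of 8 leave-one-out fits. RBBP6, an activator of cleavage, had a log2 change of 0.04.

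Among the 16 Integrator genes, 1 rose and 2 fell (18.8% called, against 26% of all genes), and 13 had negative log2 changes. INTS3 (ENSG00000143624.13, chr1:153728050-153774808), which is also the scaffold of the SOSS complex that binds single-stranded DNA, was measured at 81.1, 87.4 and 88.0 CPM in control cells, at 108, 109 and 99.0 CPM in the NELFE knockdown and at 112 and 107 CPM in the NELFB knockdown. It was the only Integrator gene whose knockdown libraries all lay above the control libraries. Its log2 change of 0.33 ± 0.07 (adjusted p = 0.00464, edgeR) lay within its error of those of PABPN1 and PCF11, the other increases called in this comparison.

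INTS2, part of the Integrator backbone (ENSG00000108506.11, chr17:61865367-61928016), fell. It was measured at 56.9, 54.9 and 51.4 CPM in control cells, at 46.1, 44.6 and 42.0 CPM in the NELFE knockdown and at 45.1 and 48.3 CPM in the NELFB knockdown, without overlap. Its log2 change was -0.27 ± 0.07 (adjusted p = 0.0165, edgeR), and the call was lost without control replicate 2. The other backbone genes, INTS1 and INTS7, had log2 changes of -0.02 and -0.06. INTS7 is one of the genes that control replicate 1 sets, at 48.4 CPM against 68.8 and 79.8 CPM in the other control libraries. Its log2 change ran from -0.24 without that library to 0.11 over the 8 leave-one-out fits.

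In the phosphatase module PPP2R1A, the PP2A scaffold subunit (ENSG00000105568.17, chr19:52170936-52229518), was measured at 360, 382 and 390 CPM in control cells, at 332, 325 and 340 CPM in the NELFE knockdown and at 334 and 327 CPM in the NELFB knockdown. These groups did not overlap, but the change was the smallest of the 9, with a log2 change of -0.18 ± 0.06 (adjusted p = 0.0332, edgeR), and the call was kept in 2 of 8 leave-one-out fits. PPP2CA, the catalytic subunit, was measured at 189, 249 and 266 CPM in control cells, at 237, 225 and 278 CPM in the NELFE knockdown and at 238 and 225 CPM in the NELFB knockdown. Here the groups overlapped, and the log2 change was 0.04. PPP2CA shares 27.7% of its exon bases with other genes. INTS6 had a log2 change of -0.18 (adjusted p = 0.158, edgeR) and was called downward without control replicate 1.

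The Integrator cleavage module had no called gene. INTS11 had a log2 change of -0.11 and INTS9 one of -0.11, and INTS4 one of 0.0018. INTS4 was measured at 26.9, 28.3 and 27.6 CPM in control cells, at 25.7, 26.3 and 27.5 CPM in the NELFE knockdown and at 28.4 and 30.0 CPM in the NELFB knockdown, with overlap.

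The remaining subunits were not called. Those that link the arms of the complex, INTS5 and INTS8, had log2 changes of -0.05 and -0.04. INTS10, INTS13 and INTS14, which form a module of their own, had values of -0.10, -0.18 and -0.13 (adjusted p = 0.325, 0.143 and 0.166, edgeR), and INTS13 was called downward without NELFE knockdown replicate 3. INTS12, a subunit with a PHD finger, had the value nearest to 0 of all 35 genes.

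INTS8 and INTS12 are 2 further genes with shared exons. INTS8 was measured at 88.2, 96.5 and 103 CPM in control cells, at 90.1, 86.1 and 103 CPM in the NELFE knockdown and at 94.8 and 91.7 CPM in the NELFB knockdown, and shares 20.7% of its exon bases (CCNE2). INTS12 was measured at 20.8, 25.8 and 23.0 CPM in control cells, at 23.1, 21.5 and 24.1 CPM in the NELFE knockdown and at 25.1 and 22.04 CPM in the NELFB knockdown, and shares 21.7% (GSTCD and ARHGEF38). Groups overlapped for both.

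For the 26 genes without a call, the log2 changes lay between -0.18 and 0.16, and the 95% intervals of edgeR together spanned -0.36 to 0.32. A change beyond 22.3% downward or 24.9% upward was outside the interval of each of these genes. The width differed between genes, from -0.15 to 0.12 for CPSF4 to -0.35 to 0.24 for INTS7. Summed over the 16 Integrator genes, the level was 1650.1 ± 92.2 CPM for the control group (SD, n = 3) against 1567 ± 36.9 CPM for both knockdowns (SD, n = 5). For the 19 cleavage-polyadenylation genes it was 2688 ± 112 CPM against 2559.5 ± 50.6 CPM. Such sums weigh abundant genes most and do not show a change across a complex. By group means, PPP2R1A went from 377 to 332 CPM, NUDT21 from 432 to 345 CPM and CPSF2 from 195 to 151 CPM. In the other direction, PPP2CA went from 234 to 241 CPM and PABPN1 from 161 to 201 CPM. In both sums control replicate 1 (1548 and 2559 CPM) lay within the knockdown libraries (1536 to 1629.7 and 2485 to 2624 CPM), and control replicates 2 and 3 lay above all of them.

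**Figure D3:**
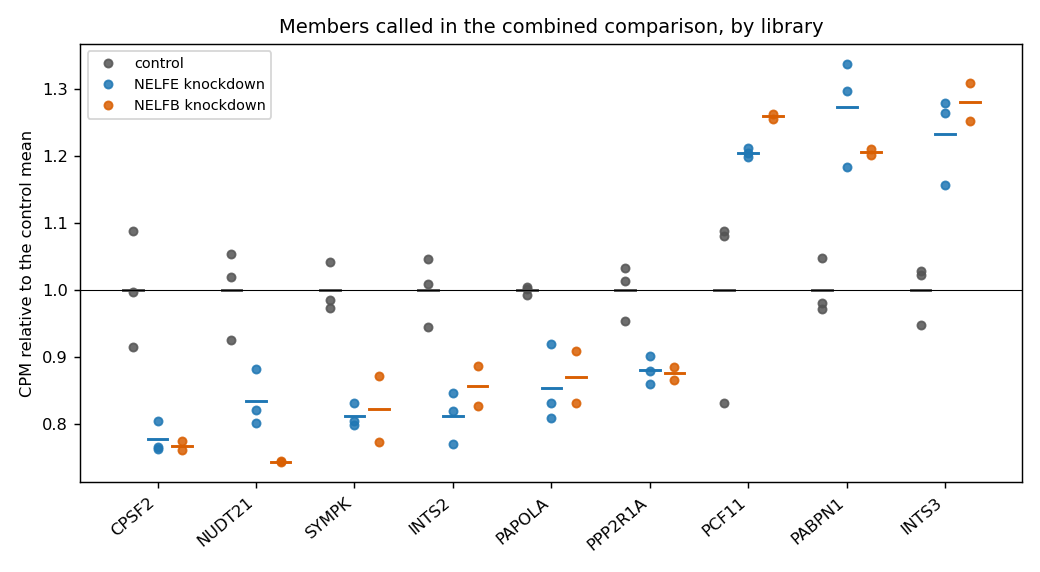
CPM of the 9 called genes in each library, divided by the mean of the 3 control libraries, with points for libraries and short lines for group means. For each gene all 5 knockdown libraries lie on one side of the control libraries, and for PCF11 control replicate 1 lies far below the other 2 control libraries.

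Of the 9 calls, 5 were present in all 8 leave-one-out fits: INTS3 and PABPN1 upward and CPSF2, NUDT21 and SYMPK downward. Leaving out control replicate 1 gave 9 called genes (25.4% of all genes were called), with INTS6 gained and PCF11 lost. Leaving out NELFE knockdown replicate 3 gave 11, with CPSF3 and INTS13 gained, while the share of all genes called went up to 31.4%. Leaving out control replicate 2 gave 6, since INTS2, PAPOLA and PPP2R1A were lost, while the share of all genes called went down to 16%.

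Each knockdown was then compared with control in a model of the 3 groups. The NELFE knockdown had 6 called genes of 35 (INTS3 and PABPN1 upward, CPSF2, INTS2, NUDT21 and SYMPK downward), against 15% of all 16852 genes. The NELFB knockdown had 5 (INTS3 and PABPN1 upward, CPSF2, NUDT21 and SYMPK downward), against 19.5% of all genes. Both comparisons use the same control libraries, so a gene with an unusual control value moves alike in both, and their likeness is not independent evidence. These counts rested on few libraries: the NELFE comparison had 0 called genes without NELFE knockdown replicate 1, replicate 2 or control replicate 2, and the NELFB comparison had 0 without either of its libraries. The NELFE comparison had 7 without control replicate 1 (PPP2R1A gained, 16.4% of all genes). It had 6 without NELFE knockdown replicate 3 (PAPOLA gained, INTS2 lost, 18.6% of all genes). It had 5 without control replicate 3 (NUDT21 lost, 10.9% of all genes). The NELFE calls of INTS2 and NUDT21 were also lost when NELFB knockdown replicate 1 or 2 was left out. The NELFB comparison had 10 called genes without control replicate 1, with PCF11, INTS5, INTS6, PPP2R1A and WDR33 gained, and 25.9% of all genes were called in that fit. It had 3 (INTS3, CPSF2 and NUDT21) without control replicate 2 or 3 or NELFE knockdown replicate 1 or 2, where 11.2% to 16.8% of all genes were called. In the fits that left 0, the calls over all genes went down to 5.91%, 6.55%, 7.2%, 3.45% and 7.2%, in the same order.

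The values of both knockdowns are given side by side. CPSF2 had log2 changes of -0.36 in the NELFE and -0.38 in the NELFB knockdown, SYMPK -0.30 and -0.28, INTS3 0.30 and 0.36, and PABPN1 0.35 and 0.27. NUDT21 had values of -0.26 and -0.43, and INTS2 of -0.30 and -0.22. Tested directly, the difference between the knockdowns was called for 0 of the 35 genes, and 0 had an unadjusted p under 0.05 in edgeR. DESeq2 and each of the other alternatives also gave 0. Over all genes 0.315% were called.

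A missing call does not show equality. The log2 differences, NELFE minus NELFB knockdown, ranged from -0.14 (INTS4, 95% interval -0.34 to 0.06) to 0.18 (CLP1, 95% interval -0.19 to 0.55). For NUDT21 the difference was 0.17 (95% interval -0.02 to 0.35), and for CPSF2 it was 0.02 (95% interval -0.17 to 0.21).

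**Figure D4:**
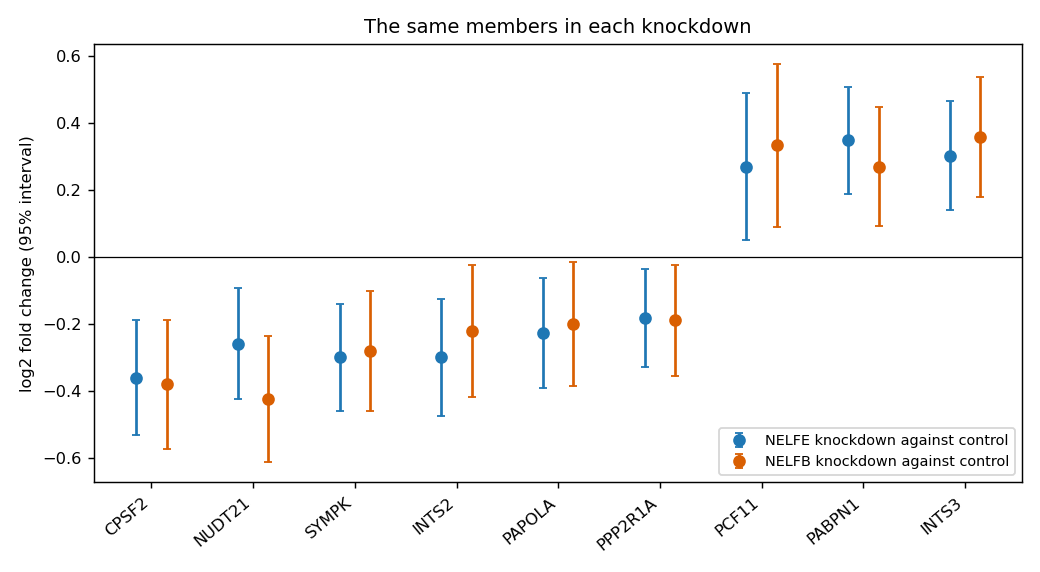
Log2 fold change of the 9 genes of the combined comparison in the NELFE and in the NELFB knockdown, each against the same 3 control libraries, with 95% intervals. The intervals of both knockdowns overlap for every gene, and NUDT21 has the widest gap (-0.26 and -0.43).

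Partners and paralogues of Integrator included a larger change than any member. Of 8 genes on this list, 2 rose and 2 fell in the combined comparison, where 13.3% of all genes rose and 12.7% fell. The median log2 change was 0.10, against -0.0021 for all genes. The number called was 2 without NELFE knockdown replicate 2 or control replicate 2 (20.8% and 16% of all genes). It was 5 without NELFE knockdown replicate 3 or control replicate 1 (31.4% and 25.4% of all genes). INTS6L, a paralogue of INTS6, was measured at 48.5, 47.8 and 45.8 CPM in control cells, at 85.1, 96.6 and 77.8 CPM in the NELFE knockdown and at 82.0 and 84.0 CPM in the NELFB knockdown. It rose 1.80-fold (log2 change 0.85 ± 0.08, adjusted p = 0.000103, edgeR), with no library of one group near the other. Leaving out a library kept this value between 0.80 and 0.87.

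Set beside INTS6 itself (68.3, 79.0 and 86.5 CPM in control cells, 65.4 to 77.2 CPM in the knockdowns), the balance of the pair differed between the groups, as a description without a test. Per exon length, INTS6L made up 68.4 ± 3.15% (SD, n = 3) of the TPM of the pair in control cells and 81.4 ± 1.88% (SD, n = 5) in the knockdowns, with 65.3% to 71.6% and 78.2% to 83.1% over the libraries. With canonical transcript lengths these shares were 53.5% and 69.9%, so the direction held while the level depended on the length used. Of the other Integrator and cleavage pairs, PPP2CB made up 34.6 ± 1.82% of its pair with PPP2CA in control cells and 37.7 ± 1.41% in the knockdowns, with overlapping libraries. PPP2CA shares 27.7% of its exon bases with other genes, and over unshared bases the shares of PPP2CB were 27.7% and 30.4%. CSTF2T made up 31.6 ± 0.859% and 34.4 ± 1.48% of its pair with CSTF2, with knockdown libraries at 32.7% or more and control libraries at 32.6% or less. PPP2R1B made up 32.5 ± 2.89% and 31.2 ± 2.16% of its pair with PPP2R1A, with overlapping libraries. PAPOLG made up 33.5 ± 1.27% and 36.3 ± 1.53% of its pair with PAPOLA. Its knockdown libraries (34.33% or more) began just above the highest control library (34.32%). With canonical transcript lengths the shares of PAPOLG were 16.2% and 17.9%.

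The partners of INTS3 in the SOSS complex did not share one direction. NABP1 and NABP2 are alternative single-stranded DNA-binding subunits of that complex. NABP1 was measured at 9.25, 9.22 and 10.8 CPM in control cells, at 12.9, 13.98 and 14.2 CPM in the NELFE knockdown and at 12.5 and 11.2 CPM in the NELFB knockdown, and rose (log2 change 0.41, adjusted p = 0.0216, edgeR). NABP2 was measured at 59.1, 66.3 and 71.5 CPM in control cells, at 51.8, 49.9 and 62.5 CPM in the NELFE knockdown and at 47.6 and 46.9 CPM in the NELFB knockdown, and fell (log2 change -0.34, adjusted p = 0.0273, edgeR), with overlap through NELFE knockdown replicate 3. The call of NABP1 was lost in 2 of the leave-one-out fits and that of NABP2 in 6. INIP, the third SOSS subunit, had a log2 change of 0.08. BRAT1, a partner of the Integrator endonuclease, fell (log2 change -0.36, adjusted p = 0.0109, edgeR).

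Among 19 termination and further 3′ end factors, 2 rose and 3 fell, with a median log2 change of -0.04. This share of 26.3% is that of all genes (26%). Without NELFE knockdown replicate 3, 8 were called, while the share of all genes went up to 31.4%. ZC3H4, a restrictor of unproductive transcription, was measured at 25.5, 35.8 and 45.0 CPM in control cells, at 66.1, 62.4 and 60.7 CPM in the NELFE knockdown and at 72.8 and 73.6 CPM in the NELFB knockdown. It rose 1.90-fold (log2 change 0.93 ± 0.15, adjusted p = 0.00166, edgeR), with control libraries that were widely spread but all below the knockdowns. Without control replicate 1, the lowest, the log2 change was 0.73 and remained called. TOX4, of the PNUTS phosphatase complex, rose with a log2 change of 0.24 (adjusted p = 0.0264, edgeR), a call lost without control replicate 1 or 2, without NELFB knockdown replicate 1 or without a filter on low counts.

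Among the termination factors that fell, TTF2, an ATPase that releases transcripts from the polymerase, was measured at 176, 165 and 166 CPM in control cells, at 124, 129 and 129 CPM in the NELFE knockdown and at 110 and 127 CPM in the NELFB knockdown, with a log2 change of -0.45 (adjusted p = 0.00104, edgeR). All its knockdown libraries were below the control libraries. SNRPA, the U1 snRNP subunit A, had one of -0.29 and SCAF4, an anti-terminator at early poly(A) sites, one of -0.25 (adjusted p = 0.00808 and 0.0142, edgeR). SNRNP70, another protein of the U1 snRNP, was called upward in the NELFB comparison (log2 change 0.27, adjusted p = 0.0302, edgeR) but not in the combined one (0.17, adjusted p = 0.0976, edgeR). The 5′ to 3′ exonuclease XRN2, the torpedo of termination, had a log2 change of -0.08 and was not called (adjusted p = 0.415, edgeR).

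Of 13 cap-binding, nuclear poly(A) and exosome factors, 0 rose and 3 fell, with a median log2 change of -0.11. The share called, 23.1%, lies near the 26% of all genes. The number was 6 without control replicate 1 (25.4% of all genes) and without NELFE knockdown replicate 3 (31.4% of all genes). It was 1 without control replicate 2, control replicate 3, NELFE knockdown replicate 1 or NELFB knockdown replicate 1, where 16% to 20.2% of all genes were called. PABPC1, the cytoplasmic poly(A)-binding protein, was measured at 1196, 1206 and 1197 CPM in control cells, at 965, 961 and 953 CPM in the NELFE knockdown and at 1040.2 and 1028 CPM in the NELFB knockdown. It fell (log2 change -0.28, adjusted p = 0.00740, edgeR), so the nuclear and the cytoplasmic poly(A)-binding protein changed in opposite directions. Its share of the summed TPM of the pair was 74.2 ± 0.830% in control cells and 65.5 ± 1.83% in the knockdowns. Over unshared exon bases these shares were 63.5 ± 1.0005% and 53.6 ± 2.02%, and with canonical transcript lengths 82.5% and 75.7%, so the level of the share depended on the length while the direction held. ZCCHC8, of the nuclear exosome targeting complex, and EXOSC10, a catalytic exosome subunit, had log2 changes of -0.33 and -0.26 (adjusted p = 0.0211 and 0.0219, edgeR). Both of these calls were lost in 4 of 8 leave-one-out fits.

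**Figure D5:**
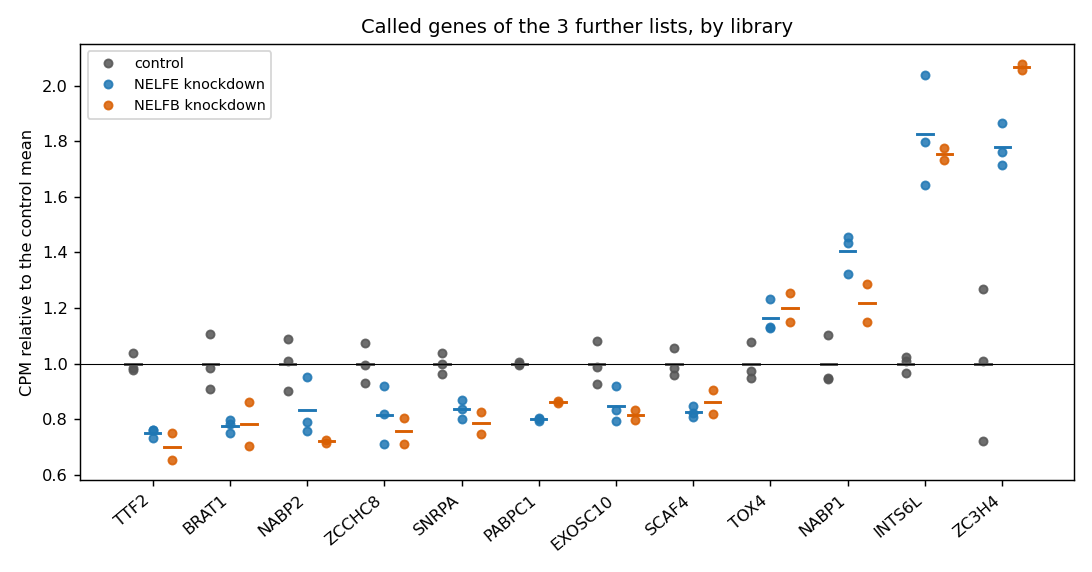
CPM of the 12 called genes of the 3 further lists in each library, divided by the mean of the 3 control libraries, with short lines for group means. INTS6L and ZC3H4 lie highest in the knockdowns (1.80-fold and 1.90-fold), and TTF2 has the lowest group means.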

How the data were processed

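The authors aligned single-end reads to GRCh38 with STAR 2.5.4a after FastQC 0.11.6 and deposited raw counts per Gencode v24 gene, from uniquely mapped reads, without strand and not normalized. Bases shared by overlapping genes therefore add to neither gene. Library totals were 22037423 to 24444185 counts. The study describes the knockdown replicates as independent, and the labels only number them.

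Symbols, exon lengths and overlaps came from GENCODE v44 on GRCh38, by Ensembl identifier, and promoters from RefSeq (GRCh38.p14, 30 of 35 genes matched). Whether the same exon bases overlap in Gencode v24, used for the counts, was not tested. The test was the robust quasi-likelihood fit of edgeR 4.0.16 under R 4.3.3, after filterByExpr and TMM scaling, with Benjamini-Hochberg adjustment over all genes tested and a threshold of 0.05. The combined comparison set 5 knockdown against 3 control libraries. All other contrasts came from 1 fit with each group as a term. TPM used merged exon length. Fits were tested on simulated data with changed genes drawn also from levels below those of the members. A log2 change of 1.0 was recovered for 95% (combined), 80% (NELFE) and 85% (NELFB) of changed genes. For a log2 change of 0.5 these shares were 57%, 41% and 34%, so smaller changes can be missed. No library was a copy of another in its own group.

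The 35 genes and the lists were chosen with earlier results of these data known. Every member is named, with values by library for called members, the 2 highest and 2 lowest in TPM and those sharing over 20% of exon bases. Of each further list, genes called in any comparison with control are named. The alternatives were DESeq2 1.42.0, DESeq2 size factors, no filter, at least 10 counts in every library, protein-coding genes only, a replicate block, other sets of libraries, each library left out, and canonical transcript length. The background share of genes in the range of control CPM of the members and levels over unshared exon bases were added after seeing the data.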

Additional observations from a re-analysis of the deposited data

Results flagged for a closer look

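Among the genes examined here (35 members, 3 further lists, 2 marker lists and the targets), the difference between the knockdowns was called for the targets and for no other gene. By edgeR's test of the difference, NELFE minus NELFB knockdown, NELFE had a log2 difference of -4.52 and NELFB one of 4.44 (adjusted p = 6.1e-09 for both, edgeR). A missing call does not show equality. The fibroblast marker COL3A1 had a difference of -1.95 (95% interval -2.84 to -1.05, adjusted p = 0.137, edgeR) and the blood marker CD34 one of -1.32 (95% interval -2.58 to -0.07, adjusted p = 0.943, edgeR). The test for a single outlying library was not run, since it needs more libraries than any group holds.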

How the results depend on the processing

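In the combined comparison the same 9 members were called with DESeq2, DESeq2 size factors, at least 10 counts in every library, protein-coding genes only or a model of the 3 groups; without a filter on low counts PAPOLA and PPP2R1A were lost. No named result reversed its direction past the threshold under any alternative run, while up to 6 of the 17 members within 0.1 of 0 on the log2 scale changed sign. Leaving out 1 library gave 2688 to 5125 called genes and 3 to 8 members that fell in the combined comparison. It gave 990 to 3123 genes, 0 to 2 members that rose and 0 to 5 that fell for NELFE. It gave 603 to 4316 genes, 0 to 3 members that rose and 0 to 7 that fell for NELFB, 27 to 78 genes for the difference, and 2 to 5, 4 to 8 and 1 to 6 genes for the partner, termination and cap-exosome lists. The lone library left in a NELFB fit is assumed to vary like the other groups. Fitting only the libraries compared left 2 members that fell for NELFE, with 11% of all genes called rather than 15%. For NELFB that fit lost the call of SYMPK, with 19.1% of all genes called. Without a filter on low counts the NELFB comparison lost PABPN1 and gained PCF11, with 12.2% of all genes called. The difference between knockdowns had 53 called genes, against 90 with DESeq2 and 161 without a filter. With canonical lengths the median control TPM of the members was 64.1 rather than 52.7, and with unshared exon bases, chosen after seeing the data, 57.1. The cause of these shifts was not tested.

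Replicate numbers were not taken to pair the samples, since the labels name no shared batch and not every pair deviated together. Equally numbered control and NELFE libraries correlated at 0.389, 0.0744 and 0.599, NELFE and NELFB libraries at 0.119 and 0.288, and control and NELFB libraries at -0.04 and -0.02. NELFE replicate 2 was closer to control replicate 1 (0.320), but all other unequally numbered control and NELFE pairs were negative (-0.478 to -0.008). With only 2 NELFB libraries their deviations mirror each other, so the NELFB values cannot decide on pairing. The main fits leave the number out, and whether equal numbers share a batch was not tested. As a block, the number gave 4763 called genes for NELFE (2520 without it), 195 for the difference, 8 termination genes and 7 cap-exosome genes, and the same 9 members in the combined comparison, where the genes called went up from 4255 to 5664 (33.6% of all genes). It gave 9 members for NELFE (PCF11, PAPOLA and PPP2R1A gained, 28.3% of all genes called) and 7 for NELFB (PCF11 and INTS2 gained, 4811 genes or 28.5% called). Each member had 436 reads or more in every library, and the part of counting error in the spread between libraries was not tested.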
